A study of Mus musculus with 7 samples.

Results

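The cells described here form the larger of 2 clusters that the authors' cell table names alpha, the glucagon-secreting cells of the islet. They were chosen by that table's gene-based cluster name (alpha, cluster 1), and no gene was used to add or drop a cell. Cluster 1 holds 1041 of 5907 cells. Library 1 gave 855 of its 4814 cells (17.8%, exact binomial 95% interval 16.7 to 18.9%), and library 2 gave 186 of 1093 (17.0%, interval 14.8 to 19.4%). Cluster 1 made up 89.0% of the alpha cells in library 1 and 77.8% in library 2, and the second alpha cluster, number 9, held the other 106 and 53. The comparison groups are the 12 other endocrine clusters of the same libraries (4 beta, 6 named delta, 1 PP and alpha cluster 9), with 3638 and 847 cells.

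Both libraries came from islets of Langerhans of female C57BL/6 mice aged 10 weeks, with no genetic change or treatment named in the labels. Islets were freed with collagenase and split into single cells with Accutase, and 4000 cells per sample were targeted. RNA was captured by a modified 5' droplet assay, with added dNTP and longer extension, and read with Nanopore long reads, which can cover a whole transcript. All cells of both libraries share the removal of insulin cDNA by a Cas9 panel, so insulin levels here are not those of untreated cDNA. The labels number the libraries as replicates 1 and 2, and nothing in them says that these came from separate animals or pools, so SDs over n = 2 may hold technical spread alone.

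Alpha cells release glucagon when blood glucose falls and in response to amino acids, and glucagon makes the liver release glucose. They cut the glucagon precursor mainly with the convertase encoded by Pcsk2. Their identity in the mouse involves homeodomain factors, among them Irx1 and Irx2, while Pdx1, Nkx6-1 and Mafa mark beta cells and Hhex marks delta cells.

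A cell of cluster 1 held a median of 1855 UMIs (unique molecular identifiers, which count molecules) and 747 genes in library 1, and 8633 UMIs and 2651.5 genes in library 2. The medians over all cells were 2110 and 9949 UMIs. In total the cluster carried 1591692 and 1634692 gene UMIs. The libraries shared 5 cell barcodes, none of them in cluster 1. Mitochondrial transcripts made up 0.861% of the UMIs of cluster 1 in library 1 and 1.69% in library 2. The main beta cluster was higher, at 1.60 and 3.75%. Delta cluster 3, at 0.880 and 1.66%, and alpha cluster 9, at 0.836 and 1.51%, were near cluster 1. PP cluster 6 was lower, at 0.625 and 1.27%. Among marker lists of other tissues, the 5 endothelial markers summed to 16.3 and 8.56 CPM in cluster 1 (CPM being counts scaled to the same total in every cluster, here with no further scaling), against 14366 and 13567 CPM in endothelial cluster 11. The defining markers Kdr in both libraries, Cdh5 in library 1 and Flt1 in library 2 were at 0. The 6 macrophage markers summed to 86.7 and 92.4 CPM, against 78364 and 66188 CPM in macrophages, with Lyz2 and Ptprc at 0 in both libraries. C1qa was not at 0: with the TMM scaling explained further on it stood at 110 and 117 CPM. The mean of the other endocrine clusters was 116 and 119 CPM. The 6 stellate markers summed to 8.80 and 15.3 CPM, against 22393 and 10470 CPM in stellate cells, with Col1a1 and Col3a1 at 0 in both. The 5 duct markers summed to 332 and 388 CPM, within the 23.6 to 1038 CPM and 3.57 to 1398 CPM of the other endocrine clusters, with Krt19 and Sox9 at 0. With TMM scaling Krt18 stood at 262 and 249 CPM, against a mean of 293 and 296 CPM in those clusters. Krt8 stood at 152 and 248 CPM, against 129 and 192 CPM. Acinar markers summed to 1.26 and 34.9 CPM, glia and neuron markers to 5.65 and 23.2 CPM and cycling markers to 15.7 and 15.3 CPM, and Ghrl of epsilon cells was at 0 in both libraries.

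Glucagon transcripts dominated these cells. Gcg, at chr2:62474530-62483650 on the minus strand (mm10), stood at 421733 CPM in library 1 and 231347 CPM in library 2 after TMM scaling, against a mean of 43231 and 31144 CPM over the other endocrine clusters. TMM scaling sets a common level over most genes, which raises the CPM of a cluster in which one transcript takes up much of the total. The ratio was 3.29 and 2.89 on the log2 scale (mean 3.09 ± 0.28, SD, n = 2). Cluster 1 stood above all 12 other clusters in each library. Next in order were alpha cluster 9, at 284540 and 177600 CPM, and delta-named cluster 12, at 144535 and 104501 CPM. Because the clusters were built from these genes, every gene difference between cluster 1 and another cluster is a description and carries no p-value.

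Almost every single cell showed this. Gcg took 0 to 49.1% of a cell's UMIs in library 1, with a median of 33.0%, and 0.0255 to 29.1% in library 2, with a median of 18.1%. The central range, with the lowest and the highest 5% of cells left off, was 15.5 to 41.1% in library 1 and 11.4 to 23.3% in library 2. The Gcg share was thus lower in library 2 for most of its cells. Of the hormone genes, Gcg had the most UMIs in 835 of 855 cells (97.7%) and 182 of 186 cells (97.8%). The exceptions were led by Ppy in 9 and 1 cells, by Iapp in 9 and 1, by Pyy in 1 and 2 and by Sst in 1 and 0.

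**Figure D1:**
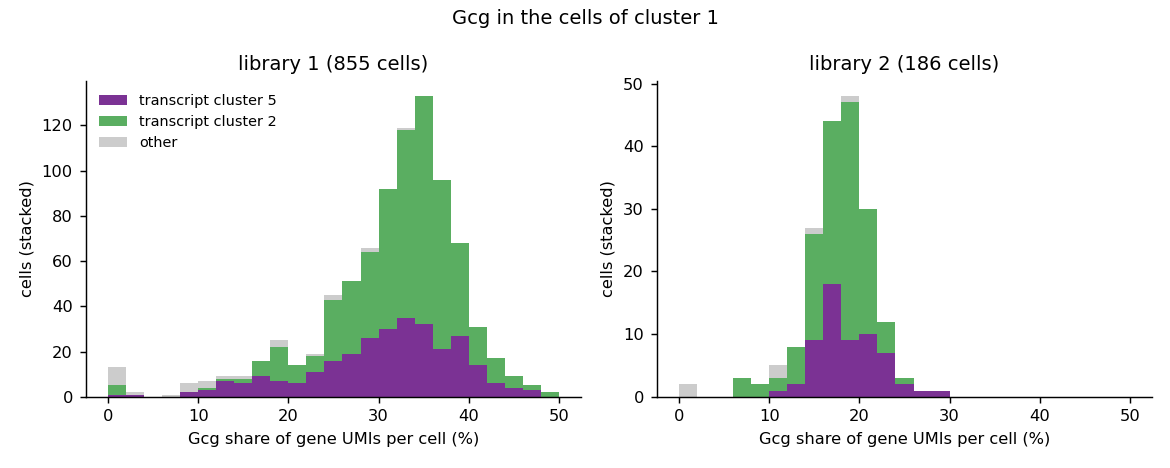
Histogram of the Gcg share of gene UMIs in each cell of cluster 1 (x axis, percent) against the number of cells (y axis, stacked), for library 1 (left) and library 2 (right), coloured by the authors' transcript-based cluster. The medians are 33.0% and 18.1%.

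Gcg UMIs also lay in cells that should lack the gene. To compare at 1 depth, 1000 UMIs were drawn from each cell, and shallower cells were dropped (59 of cluster 1 in library 1 and 0 in library 2). Gcg then had a UMI in 99.2% of 796 cells in library 1 and 99.5% of 186 cells in library 2. Unthinned shares were 99.4 and 100%. At the same depth, 41.3% of 75 and 30.0% of 10 cells of endothelial cluster 11 carried a Gcg UMI, and unthinned 49.6 and 80.0% did, at median depths of 1075 and 5406.5 UMIs. In stellate cells 54.8% of 42 and 81.5% of 27 thinned cells did, and in macrophages 36.0% of 50 and 57.1% of 7. The level set most cells apart: the median Gcg share of a cell was 0 and 0.0294% in endothelial cluster 11. Single background cells reached higher shares. In library 1 the highest cell had 24.1% in endothelial cluster 11, 34.7% in stellate cells and 32.9% in macrophages. In library 2 the highest had 0.186, 11.04 and 0.215%.

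The upstream sequence of Gcg is shown because Gcg led the hormone transcripts in nearly every cell. It is the 250 bases before the RefSeq start on the minus strand (chr2:62483654-62483903, GRCm38.p6), and the capitals mark the match to a searched motif.
Gcg upstream: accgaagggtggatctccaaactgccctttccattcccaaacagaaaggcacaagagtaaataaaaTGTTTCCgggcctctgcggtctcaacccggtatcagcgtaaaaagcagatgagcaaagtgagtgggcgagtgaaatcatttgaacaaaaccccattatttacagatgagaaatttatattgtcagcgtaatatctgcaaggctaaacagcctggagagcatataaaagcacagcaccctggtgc
The search covered TGTTTNC (the core bound by forkhead factors), TGCTGA (part of the Maf site), TAATTA (a homeodomain core) and TGACGTCA (the cAMP response element), on both strands. Only TGTTTNC was found in this window, as 1 match. Among RefSeq windows of 300 bases for genes higher in cluster 1 (147 windows of 94 of the 123 genes named as higher further on), 32.0% held TGTTTNC, 24.5% TGCTGA, 2.04% TAATTA and 0.680% TGACGTCA. Over all 32851 windows the shares were 20.5, 19.5, 5.29 and 1.79%. A match is only a run of letters, and binding was not measured.

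The other markers given for these cells followed. Ttr, on chromosome 18, encodes transthyretin, a carrier of thyroid hormone and retinol-binding protein. It stood at 50836 and 80669 CPM in cluster 1, against 7317 and 10993 CPM in the other endocrine clusters (log2 2.84 ± 0.06). Cluster 1 exceeded all 12 other clusters in both libraries, and Ttr was higher in library 2 where Gcg was lower. Irx2, at chr13:72628820-72634198 on the plus strand, stood at 113 and 92.1 CPM, against 16.6 and 20.2 CPM. In library 2 alpha cluster 9 was above it, at 124 CPM. At 1000 UMIs per cell Irx2 was seen in 8.04% of the cells (exact interval 6.25 to 10.2%) and 4.84% (2.24 to 8.99%), against 0 of 75 and 0 of 10 cells of endothelial cluster 11, whose exact 95% upper bounds are 4.80 and 30.8%. Of the 8 alpha markers, 7 were at least 2-fold higher than the other endocrine mean in both libraries. Gc, the vitamin D binding protein, was the other one, at 418 and 493 CPM against 207 and 192 CPM.

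**Figure D2:**
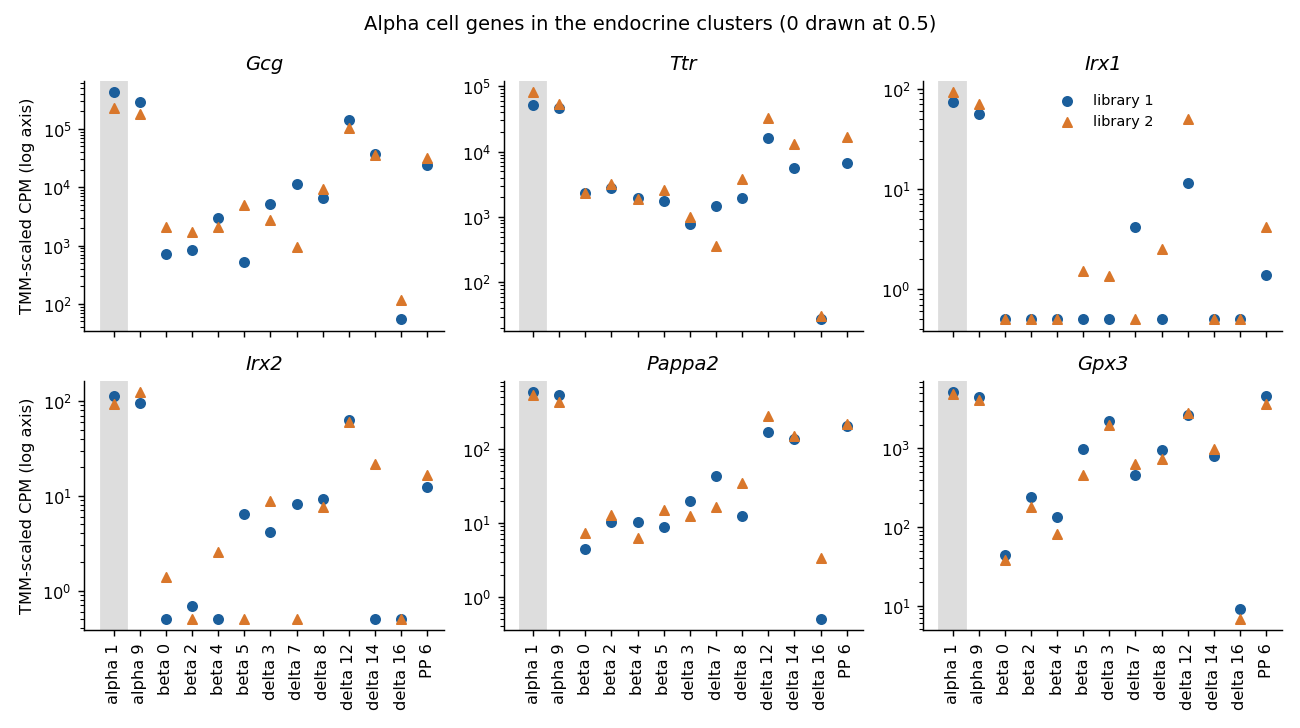
Levels of 6 alpha cell genes (y axis, TMM-scaled CPM on a log axis, 0 drawn at 0.5) in the 13 endocrine clusters (x axis), with circles for library 1 and triangles for library 2 and cluster 1 shaded. For Gcg, cluster 1 is at 421733 and 231347 CPM and alpha cluster 9 at 284540 and 177600 CPM, and for Gpx3 PP cluster 6 is at 4644 and 3669 CPM.

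Of 7065 genes with at least 20 CPM in cluster 1 or in the mean of the other endocrine clusters in each library, 123 (1.74%) were at least 2-fold higher in cluster 1 in both libraries and 290 (4.10%) at least 2-fold lower. Ratios were taken after adding 5 CPM to each side, which understates the change of low genes. No gene was 2-fold apart in opposite directions in the 2 libraries. Library 1 alone had 228 higher and 454 lower genes, and library 2 alone 169 and 382. Of the 123, 43 were above all 12 other clusters in both libraries and 105 above all but clusters 9 and 12. Scaling set the balance: without TMM the median gene stood at -0.40 and the counts were 63 higher and 512 lower. With CPM over non-hormone genes they were 94 and 427, and with DESeq2 size factors 105 and 332.

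**Figure D3:**
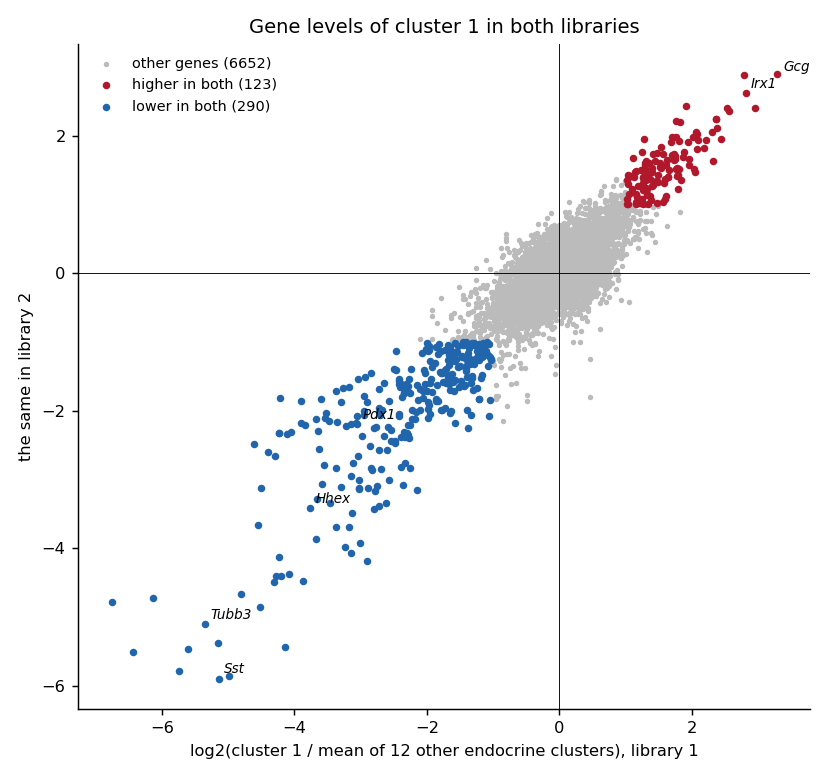
Each point is 1 of 7065 genes, with the log2 ratio of cluster 1 to the mean of the 12 other endocrine clusters in library 1 (x axis) and library 2 (y axis). The 123 genes at least 2-fold higher in both are red and the 290 lower are blue, and no gene lies past 2-fold in opposite directions.

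Transcription factors were among the genes higher in cluster 1 in both libraries. Irx1, an Iroquois homeodomain factor at chr13:71957921-71963723 on the minus strand, had 73.3 and 92.1 CPM in cluster 1, against 6.11 and 10.8 CPM in the other endocrine clusters (log2 2.72 ± 0.14). Irx1 stood at 56.5 and 70.3 CPM in cluster 9 and, in cluster 12, at 11.4 and 49.4 CPM. Etv1, an ETS factor, had 450 and 446 CPM, against 139 and 154 CPM (log2 1.58 ± 0.11). Cluster 9 had 399 and 365 CPM of Etv1.

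Most of the wider list of alpha identity factors was less than 2-fold apart. Of 18 listed factors above the floor, 5 were at least 2-fold higher (Irx1, Irx2 and Etv1 among them) and none lower. The list's median log2 ratio was 0.14, beside 0.04 over all genes. The counts of this and the later lists stand beside 1.74% higher and 4.10% lower over all 7065 genes. Insm1, a zinc finger factor of endocrine cells, stood at 37.9 and 51.4 CPM, against 69.9 and 74.3 CPM. The 7 listed factors and markers of beta and delta cells that passed the floor were all lower, with a median log2 ratio of -2.62. Hhex had 1 and 3 UMIs in all of cluster 1, or 0.842 and 2.45 CPM, against 74.6 and 74.4 CPM. That is 88.5-fold lower in library 1 (95% counting interval 15.9 to 3497) and 30.4-fold lower in library 2 (10.4 to 147). Pdx1 had 10.9 and 22.0 CPM, against 127 and 118 CPM, and Nkx6-1 had 41.3 and 39.1 CPM, against 179 and 168 CPM. Mafa had 6.74 and 49.7 CPM, against 79.5 and 145 CPM, so its 2 libraries differed widely.

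**Figure D4:**
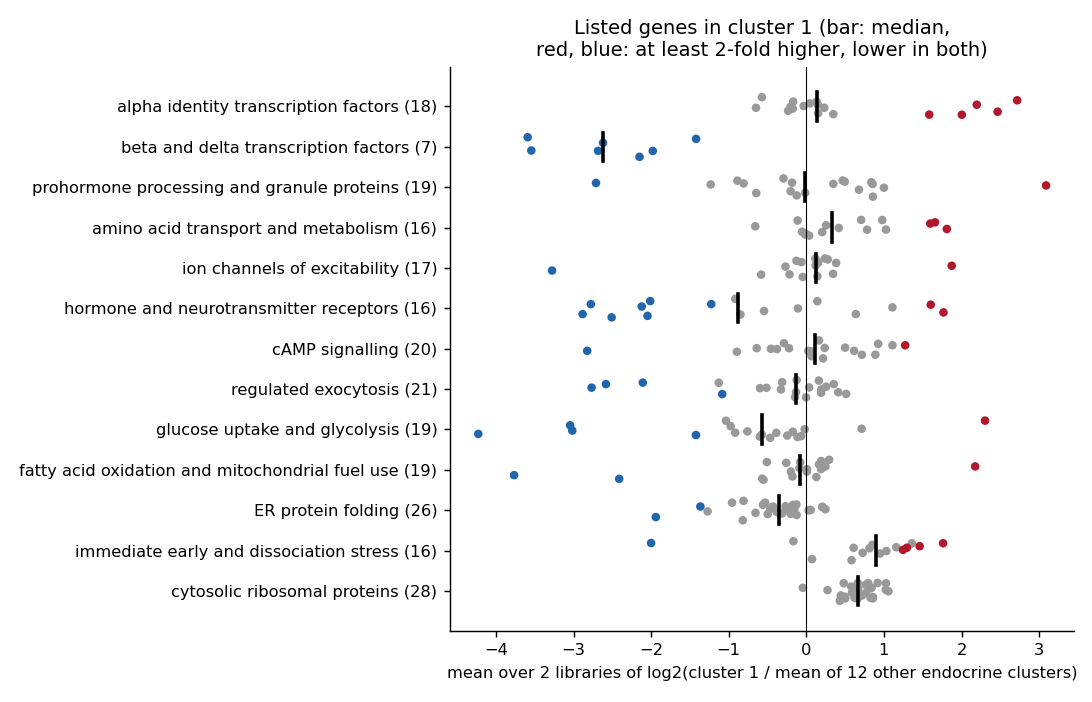
Each point is a listed gene above the floor, with the mean over 2 libraries of its log2 ratio of cluster 1 to the mean of the 12 other endocrine clusters (x axis), by list (rows, with the number of genes). Bars are medians, which run between -2.62 for beta and delta factors and 0.90 for immediate early genes, and coloured points are at least 2-fold apart in both libraries.

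Several of the leading genes encode secreted or extracellular proteins. Pappa2, a protease that cleaves proteins binding insulin-like growth factors, had 586 and 542 CPM, against 96.9 and 98.5 CPM (log2 2.47 ± 0.09). Sfrp5, a secreted Wnt antagonist, had 530 and 656 CPM, against 123 and 154 CPM. Gpx3, the secreted glutathione peroxidase, had 5189 and 4972 CPM, against 1480 and 1306 CPM. C8b, a complement component, had 246 and 246 CPM, against 53.3 and 60.4 CPM. Hapln1, which links hyaluronan to proteoglycans, had 77.5 and 126 CPM, against 18.2 and 23.5 CPM. All 5 were at least 2-fold higher in each library. Pappa2 and Gpx3 topped all 12 other clusters, with alpha cluster 9 next to them for Pappa2, at 540.4 and 428 CPM, and near for Gpx3, at 4535 and 4081 CPM. PP cluster 6 had 4644 and 3669 CPM of Gpx3. Cluster 9 was above cluster 1 for C8b in both libraries (247 and 279 CPM), for Hapln1 in library 1 (102 CPM) and for Sfrp5 in library 2 (731 CPM).

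Tgm3, a transglutaminase, differed in level between the libraries, with 280 and 72.6 CPM, against 31.9 and 9.70 CPM. Its ratio was nevertheless alike, at log2 2.95 and 2.40. Wnk3, a kinase that acts on chloride cotransporters, had 307 and 207 CPM, against 55.6 and 40.0 CPM. Alpha cluster 9 was above cluster 1 for Wnk3 in both libraries, at 346 and 222 CPM. Rhou, a small GTPase, Mamld1, Cryba2, a crystallin, and Ndst4, a heparan sulfate sulfotransferase, had mean log2 ratios of 2.05, 2.17, 1.93 and 2.01. For Rhou, cluster 9 was above cluster 1 in library 1 (88.3 against 67.4 CPM). In library 2 cluster 9 was above it for Cryba2 (635 against 608 CPM) and Ndst4 (128 against 120 CPM). For Mamld1 cluster 9 was lower in both libraries.

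Glucagon is made by cutting a precursor in dense granules, and the granule genes went both ways. Of 19 listed genes above the floor, 9 were above and 9 below the other endocrine clusters in both libraries. By 2-fold, Gcg was higher and Pcsk1 lower, and the median was -0.01. Without TMM 4 were lower and the median was -0.51, and with CPM over non-hormone genes 3 were lower and it was -0.30. Pcsk1, the convertase that beta cells use for proinsulin, had 9.26 and 32.6 CPM, against 168 and 128 CPM (log2 -2.71 ± 1.25). Pcsk2, the alpha cell convertase, had 6454 and 5294 CPM, against 3045 and 2800 CPM. Its log2 ratio of 1.00 ± 0.12 fell just short of 2-fold in library 2. Pcsk1n, a convertase inhibitor, had 16356 and 14253 CPM, against 9074 and 7817 CPM. Scg2, a granin, had 1224 and 1503 CPM, against 3550 and 2869 CPM. Levels in alpha cluster 9 were 16469 and 15641.5 CPM for Pcsk1n, 5626 and 4938 CPM for Pcsk2 and 1109 and 937 CPM for Scg2.

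Amino acids drive glucagon release, and 3 of 16 listed amino acid genes were at least 2-fold higher and none lower. Their median was 0.34. Over all genes 1.74% were higher and 4.10% lower. Slc7a2, a transporter of arginine and other cationic amino acids, had 823 and 507 CPM, against 207 and 158 CPM. Slc38a5, a glutamine transporter whose expression in mouse alpha cells is linked to their growth, had 98.5 and 165 CPM, against 24.6 and 54.5 CPM. The second alpha cluster stood higher for Slc38a5 in both libraries, at 141 and 403 CPM. Glud1, glutamate dehydrogenase, and Oat, ornithine aminotransferase, had mean log2 ratios of 0.98 ± 0.06 and 1.03 ± 0.04, but neither reached 2-fold in both libraries.

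Of 17 ion channels of excitability above the floor, 1 was higher and 1 lower, with a median of 0.12. Over all genes 1.74% were higher and 4.10% lower, so single calls say little about this list. Kcnk3, a background potassium channel, had 113 and 105 CPM, against 29.6 and 22.9 CPM. Trpm5, a calcium-activated cation channel of beta cells, had 7.58 and 40.0 CPM, against 232 and 219 CPM.

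Receptors for hormones and neurotransmitters were more often lower than higher. Of 16 above the floor, 2 were higher and 7 lower, and the median was -0.88. Over all genes 1.74% were higher and 4.10% lower. The higher pair, picked out after their values were seen, were Avpr1b, a vasopressin receptor, at 36.2 and 28.5 CPM against 5.59 and 6.27 CPM, and Gria2, a glutamate receptor subunit, at 354 and 203 CPM against 99.0 and 72.7 CPM. Glp1r, the GLP-1 receptor, had 12.6 and 67.7 CPM, against 259 and 259 CPM. Gcgr, the glucagon receptor, had 0.842 and 4.89 CPM, against 26.1 and 25.2 CPM. Adra2a, an adrenergic receptor, had 5.05 and 6.52 CPM, against 34.8 and 44.6 CPM. Chrm3, a muscarinic receptor, had 1.68 and 2.45 CPM, against 40.8 and 30.2 CPM, and Prlr, the prolactin receptor, had 21.9 and 66.0 CPM, against 305 and 285 CPM.

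In cAMP signalling 1 of 20 genes was higher and 1 lower, with a median of 0.11. Gnas, which encodes the stimulatory G protein subunit and other products, had 3663 and 3398 CPM, against 1468 and 1444 CPM (log2 1.27 ± 0.06), which was no longer 2-fold in both libraries without TMM scaling and with CPM over non-hormone genes. Ppp1r1a, a phosphatase inhibitor, had 68.2 and 205 CPM, against 845 and 904 CPM. Of 21 exocytosis genes none was higher and 4 were lower, with a median of -0.13. For both lists the shares over all genes were 1.74% higher and 4.10% lower. Rab3b, a vesicle GTPase, had 56.4 and 64.4 CPM, against 282 and 271 CPM, and Sytl4, which tethers granules, had 5.05 and 26.1 CPM, against 93.9 and 108 CPM. Cplx1, a complexin, had no UMI in cluster 1 in either library, against 27.3 and 30.8 CPM. Against a floor of 3 UMIs per library it was at least 10.8-fold and 12.6-fold lower. When the reference held only clusters of 20 or more cells in each library, Cplx1 was at 0 and 0.163 CPM there too.

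Of 19 genes of glucose uptake and glycolysis, 1 was higher and 4 were lower, with a median of -0.57. Without TMM 7 were lower, and with CPM over non-hormone genes 6 were. Pdk4, the kinase that shuts off pyruvate dehydrogenase, had 141 and 97.0 CPM, against 23.4 and 16.6 CPM, and alpha cluster 9 had 145 and 102 CPM. Slc2a2, the beta cell glucose transporter, had 18.5 and 78.3 CPM, against 433 and 288 CPM. G6pc2, the islet glucose-6-phosphatase subunit, had 67.4 and 165 CPM, against 1081 and 764 CPM. Ldha, lactate dehydrogenase, had 0 and 1 UMI in cluster 1, against a mean of 79.5 and 116 CPM over all 12 other clusters. Over the 10 of them with at least 20 cells in each library Ldha stood at 1.66 and 2.82 CPM. For fatty acid oxidation and mitochondrial fuel use the counts were 1 higher and 2 lower of 19, with a median of -0.08. Beside this list and that of glycolysis, 1.74% of all genes were higher and 4.10% lower. Higd1a, a mitochondrial protein, had 113 and 256 CPM, against 18.9 and 58.1 CPM, and alpha cluster 9 had 138 and 302 CPM. Hadh, an enzyme of short-chain fatty acid oxidation, had 18.5 and 49.7 CPM, against 136 and 253 CPM. Acot7, an acyl-CoA thioesterase, had 0 and 1 UMI, against 58.8 and 79.3 CPM, or 6.17 and 4.95 CPM over clusters of at least 20 cells.

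Among 26 genes of protein folding in the endoplasmic reticulum, none was higher and 2 were lower, with a median of -0.35. Without TMM 6 were lower (median -0.81), and with CPM over non-hormone genes 4 were (median -0.59). With TMM, 1.74% of all genes were higher and 4.10% lower. Ero1lb, an oxidase that beta cells express strongly, had 147 and 296 CPM, against 834 and 794 CPM, and Edem1, a factor in the removal of misfolded proteins, had 8.42 and 17.1 CPM, against 38.0 and 40.8 CPM.

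Genes of the immediate early response, which also respond to cell isolation, had the highest median of the lists, 0.90, with 4 of 16 higher and 1 lower. The higher ones numbered 2 of 16 without TMM and 2 of 17 with CPM over non-hormone genes. Egr1 had 611 and 1327 CPM, against 217 and 653 CPM, with a mean log2 ratio of 1.25 that was 0.88 without TMM, and Socs3 had 46.3 and 88.1 CPM, against 7.36 and 28.6 CPM. Klf4 and Zfp36 had mean log2 ratios of 1.46 ± 0.05 and 1.30 ± 0.38. Hspb1, a small heat shock protein, had 19.4 and 28.5 CPM, against 89.5 and 133 CPM. Fos was 1722 and 2932 CPM in cluster 1, against 622 and 1619 CPM, so its level moved more between libraries within the reference than in cluster 1. Between library 2 and library 1 the list's median log2 difference was 0.65 in cluster 1 and 1.12 in the reference.

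Cytosolic ribosomal protein genes stood higher by a smaller step. None of 28 reached 2-fold in both libraries, yet 27 were above the reference in both. The median was 0.67, beside 0.04 over all genes. Rpl13a had 2190 and 3432 CPM, against 1114 and 1551 CPM, and Rps24 had 2294 and 5073 CPM, against 1214 and 2904 CPM. The medians of this list and of the immediate early list stayed above 0 under all 4 scalings (lowest 0.28 and 0.54, both without TMM). Those of alpha identity factors, ion channels and cAMP signalling fell below 0 without TMM (-0.28, -0.32 and -0.27) and with CPM over non-hormone genes (-0.08, -0.14 and -0.16), and that of amino acid genes fell below 0 only without TMM (-0.15).

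Among the named lower genes, Sst, the delta cell hormone, had 775 and 419 CPM, against 27540 and 25184 CPM (log2 -5.52 ± 0.53). Shisal2b, a membrane protein, had 5.05 and 8.15 CPM, against 195 and 291 CPM, and Cd24a, a surface glycoprotein, had 1.68 and 1.63 CPM, against 148 and 186 CPM. Nnat, an imprinted membrane protein gene, had 3.37 and 12.2 CPM, against 191 and 213 CPM. Sez6l, a neuronal membrane protein, had 11.8 and 21.2 CPM, against 170 and 182 CPM. All 5 were also at least 2-fold lower with a reference of clusters of 20 or more cells.

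For several others the reference moved with 2 small clusters that the authors' table names delta, number 14 with 20 and 10 cells and number 16 with 7 and 7. Tubb3, a neuronal tubulin, had 3.37 and 5.71 CPM, against 335 and 362 CPM, but against 29.0 and 26.1 CPM over clusters of at least 20 cells. Stmn3, a microtubule regulator, had 55.6 and 56.3 CPM, against 430 and 431 CPM, or 116 and 121 CPM, and with that reference it was no longer 2-fold lower in both libraries. S100a10, an annexin partner, had 11.8 and 30.2 CPM, against 206 and 336 CPM, or 121 and 169 CPM, and cluster 16 held 1157 and 2062 CPM of it. Mapt, tau, had 6.74 and 6.52 CPM, against 78.6 and 79.0 CPM, or 55.8 and 41.0 CPM. Leaving out the clusters with fewer than 20 cells in a library (14 and 16) gave 111 higher and 204 lower genes, 100 and 176 of them shared with the counts above.

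Other named lower genes have beta cell or metabolic roles. Mlxipl, the carbohydrate-responsive factor ChREBP, had 23.6 and 35.1 CPM, against 201 and 224 CPM. Enho, which encodes adropin, had 29.5 and 17.9 CPM, against 402 and 154 CPM. Pde5a, a cyclic GMP phosphodiesterase, had 12.6 and 8.15 CPM, against 135 and 62.9 CPM. Fkbp1b, a ryanodine receptor partner, had 8.42 and 31.0 CPM, against 257 and 222 CPM, and Fam151a had 5.89 and 31.0 CPM, against 225 and 212 CPM. Each stood below at least 9 of the 12 other clusters in both libraries.

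Hormones of other islet cells differed in how far they passed the background. Ppy, encoding pancreatic polypeptide, had 16614 and 17483 CPM in cluster 1, against 28959 and 25453 CPM in the other endocrine clusters. At 1000 UMIs per cell, 50.9% (47.4 to 54.4%) and 50.5% (43.1 to 57.9%) of its cells had a Ppy UMI, and unthinned 58.0 and 90.9% did. In endothelial cluster 11, which should lack Ppy, 6.67% (2.20 to 14.9%) and 30.0% (6.67 to 65.2%) did, and in stellate cells 16.7 and 18.5%. The Ppy of cluster 1 sat in a minority of its cells: the median share was 0.0580 and 0.0631% of a cell's UMIs, while the top 5% of cells started at 6.82 and 7.12% and the highest cells reached 28.5 and 25.4%. Pyy, encoding peptide YY, had a UMI in 83.8 and 88.7% of thinned cells, against 6.67 and 10.0% in endothelial cluster 11 and 16.7 and 25.9% in stellate cells. Its level was 19400 and 37229 CPM, against 19818 and 25160 CPM.

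For the beta and delta hormones the comparison depended on the background cells. In stellate cells, which should lack them, Iapp (amylin) was seen in 38.1 and 92.6% of thinned cells, Ins2 in 33.3 and 37.0% and Sst in 19.0 and 29.6%. The thinned shares in cluster 1 were 50.8 and 93.0% for Iapp, 13.2 and 23.1% for Ins2 and 18.8 and 28.0% for Sst. For Ins2 and Sst these shares lay under those of stellate cells in both libraries, for Sst by little. The exact intervals overlapped for Sst in both libraries. For Ins2 they overlapped in library 2 (17.3 to 29.8% in cluster 1 and 19.4 to 57.6% in stellate cells). For Iapp the shares of cluster 1 lay above those of stellate cells, but the exact intervals overlapped in both libraries. They were 47.2 to 54.3% in cluster 1 and 23.6 to 54.4% in stellate cells in library 1. In library 2 they were 88.3 to 96.2% and 75.7 to 99.1%. In endothelial cluster 11 the thinned shares were 36.0 and 80.0% for Iapp, 26.7% and 2 of 10 cells for Ins2, and 8.00 and 40.0% for Sst. In library 1 cluster 1 was above these for Iapp and Sst and below for Ins2, and the exact intervals overlapped narrowly for Iapp (47.2 to 54.3% in cluster 1, 25.2 to 47.9% in endothelial cells) and Sst (16.2 to 21.7% and 2.99 to 16.6%).

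Beta cell genes were also less depleted in library 2. Iapp had 3292 and 10217 CPM in cluster 1, against 54555 and 50798 CPM in the reference, and Ucn3, a beta cell peptide gene, had 8.42 and 57.9 CPM, against 322 and 346 CPM. The 9 beta markers summed to 2873 and 8546 CPM of all UMIs in cluster 1, against 146172 and 116573 CPM in main beta cluster 0, and none was at 0. All 9 were at least 2-fold lower in cluster 1 in both libraries. Over all genes, 333 of 7065 differed at least 2-fold between libraries within cluster 1, of which 281 were higher in library 2, and 300 differed in the same direction in the reference. Whether free RNA or cell mixtures play a part in the beta cell genes was not tested.

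The second alpha cluster differed little in the genes it used. Of 6720 genes above the floor, 10 (0.149%) were at least 2-fold higher in cluster 1 than in cluster 9 in both libraries and 3 (0.0446%) lower. The cells of cluster 9 were deeper, with medians of 3010.5 and 11765 UMIs. The 1 gene of the 10 with at least 50 CPM in cluster 1 in each library was Ins2, at 272 and 534 CPM, against 102 and 218 CPM, and its share of cells lay below that of stellate cells, as given above. The lower 3, picked out after their values were seen, were the protease inhibitor genes Serpina1a (6.74 and 2.45 CPM, against 28.3 and 24.1 CPM) and Serpina1d (7.58 and 8.97 CPM, against 21.2 and 31.5 CPM), and Zfp52 (6.74 and 8.15 CPM, against 21.2 and 22.2 CPM). The Serpina1 copies are near identical, so their UMIs may be split between them. All 3 had 17 or fewer UMIs in cluster 9 in each library. The counts moved with 1 library: library 1 alone had 305 higher and 97 lower genes and library 2 alone 114 and 59, and without TMM scaling the counts were 2 and 0. Gcg was 421733 and 231347 CPM in cluster 1, against 284540 and 177600 CPM in cluster 9, a log2 ratio of 0.57 and 0.38. Of the function-list genes above the floor, Prlr was 2-fold apart in both libraries, and below the floor Ucn3, a beta cell peptide gene picked out after its values were seen, was too (8.42 and 57.9 CPM, against 0 and 25.9 CPM). The immediate early list had a median log2 of -0.26 against cluster 9.

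Inside cluster 1 the authors' separate clustering of transcripts drew a further line. In library 1, 286 cells lay in transcript cluster 5 and 541 in transcript cluster 2, both named alpha, and in library 2 the numbers were 60 and 120. Shares of the cluster were 33.5 and 32.3% for transcript cluster 5, against 63.3 and 64.5% for transcript cluster 2. The rest lay mostly in clusters named delta (14 and 5 cells) and PP (10 and 1). Cells of transcript cluster 5 were shallower, with medians of 1415.5 and 6902 UMIs, against 2095 and 9095.5 UMIs in transcript cluster 2. Gcg shares were alike, at 31.3 and 18.4%, against 32.2 and 17.2% of all UMIs. Of 5720 genes, 16 (0.280%) were at least 2-fold higher in transcript cluster 5 in both libraries and 8 (0.140%) lower. Mitochondrial transcripts made up 1.04 and 1.99% of UMIs in transcript cluster 5, against 0.792 and 1.56% in transcript cluster 2, and their part in the result was not tested. The 16 higher genes had 9 to 25 UMIs each in transcript cluster 5 in each library, and they include 4 Gm and 3 Rik predicted genes and the chemoreceptor genes Olfr351, Olfr1031 and Vmn2r88, all picked out after their values were seen. Of the lower genes, Ppy had 2778 and 5000 CPM (not TMM-scaled), against 12834 and 12958 CPM in transcript cluster 2. Tspan8, a tetraspanin picked out after its values were seen, had 7.20 and 7.10 CPM, against 30.0 and 33.4 CPM, on 3 UMIs in transcript cluster 5 in each library. Since both clusterings used these cells' reads, these values too carry no test.

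Long reads allow the transcripts of a gene to be told apart. Transcript usage, the share of a gene's UMIs that each transcript takes, was tested because the gene-based clusters were made without it. In edgeR's diffSpliceDGE over 6437 genes, 10 (0.155%) were called between cluster 1 and the 10 other endocrine clusters of at least 20 cells at an adjusted p under 0.05, and 388 had an unadjusted p under 0.05. Between cluster 1 and alpha cluster 9 no gene was called by edgeR (0%, with 35 at an unadjusted p under 0.05) or by limma (0, with 391 unadjusted). The fit held the library as a block, since all clusters of a library share it, and without the block 1 of the 10 genes was called, namely Gnas. Leaving alpha cluster 9 out of the reference gave 25 genes, among them all 10.

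Gnas, at chr2:174284320-174346744 on the plus strand, had by far the smallest p. The locus is imprinted and has several starts: the first makes the Nesp secretory protein, exon 1A starts noncoding transcripts, and the last makes the stimulatory G protein. The 250 bases before these 3 RefSeq starts are given because cluster 1 differed in which of them its transcripts began at. They lie at chr2:174327499-174327748, chr2:174284070-174284319 and chr2:174329756-174330005 on the plus strand (GRCm38.p6), and capitals mark CG dinucleotides, the sites of DNA methylation.
Gnas exon 1A upstream: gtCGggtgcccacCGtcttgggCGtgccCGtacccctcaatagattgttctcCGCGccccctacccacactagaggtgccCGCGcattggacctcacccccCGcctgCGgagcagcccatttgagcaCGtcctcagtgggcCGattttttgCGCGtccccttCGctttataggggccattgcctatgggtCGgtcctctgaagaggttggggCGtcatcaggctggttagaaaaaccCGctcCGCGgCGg
Gnas Nesp upstream: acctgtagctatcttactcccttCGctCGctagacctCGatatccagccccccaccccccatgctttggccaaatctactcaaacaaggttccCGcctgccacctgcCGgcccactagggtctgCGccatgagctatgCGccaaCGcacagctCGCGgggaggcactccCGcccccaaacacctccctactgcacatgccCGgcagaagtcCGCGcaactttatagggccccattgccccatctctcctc
Gnas Gs alpha upstream: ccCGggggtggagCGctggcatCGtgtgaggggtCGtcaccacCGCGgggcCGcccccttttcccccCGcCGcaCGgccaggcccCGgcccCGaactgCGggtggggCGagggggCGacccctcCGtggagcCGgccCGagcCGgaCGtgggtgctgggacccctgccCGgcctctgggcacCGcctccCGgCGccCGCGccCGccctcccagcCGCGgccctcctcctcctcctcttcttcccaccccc
They hold 21, 14 and 29 CG dinucleotides. Annotated transcripts were grouped by a start within 500 bases of these.

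Transcripts that start at exon 1A took 67.7% of 896 Gnas UMIs in library 1 (exact interval 64.6 to 70.8%) and 65.2% of 886 in library 2 (62.0 to 68.4%) in cluster 1, against a mean of 28.3 ± 17.6% and 25.6 ± 22.3% over the 10 other clusters (SD over clusters). Those that start at Nesp took 13.3 and 19.4%, against a mean of 28.3 and 34.7%. Those of the stimulatory G protein took 18.2 and 15.2%, against 41.4 and 36.9%. For both starts the other clusters were widely spread, and cluster 1 lay within their range. The Nesp shares ran from 2.50 to 80.8% and from 0.673 to 86.1%, with medians of 16.8 and 19.6%. The stimulatory G protein shares ran from 8.28 to 76.7% and from 4.71 to 85.9%, with medians of 32.0 and 20.6%. The highest exon 1A share among the other clusters was 64.4 and 71.5%, in alpha cluster 9. PP cluster 6 followed, at 52.3 and 54.0%. These sums over starts are a description. The exon 1A sum includes Gnas-202, which GENCODE calls protein coding. By transcript, the noncoding Gnas-217, Gnas-219 and Gnas-221, all with an exon 1A start, were each called as used more. Gnas-221 took 21.3 and 31.6%, against 5.98 and 9.07% (adjusted p 6.1e-29 in edgeR). Gnas-217 took 13.1 and 15.2%, against 2.33 and 4.34% (adjusted p 3.9e-34), and Gnas-219 took 20.5 and 12.3%, against 4.35 and 4.87% (adjusted p 9.7e-27). The coding Gnas-207, from the last start, was used less, at 1.12 and 1.58%, against 11.5 and 10.4% (adjusted p 3.8e-07). The coding Gnas-208, also from the last start, took 15.96 and 11.85%, against 22.8 and 19.5%. Gnas-208 carried most UMIs of that start in cluster 1, and it was not called (adjusted p 0.92 in edgeR). Gnas overlaps the antisense gene Nespas, and whether the counting used strand was not known from the sources used here.

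**Figure D5:**
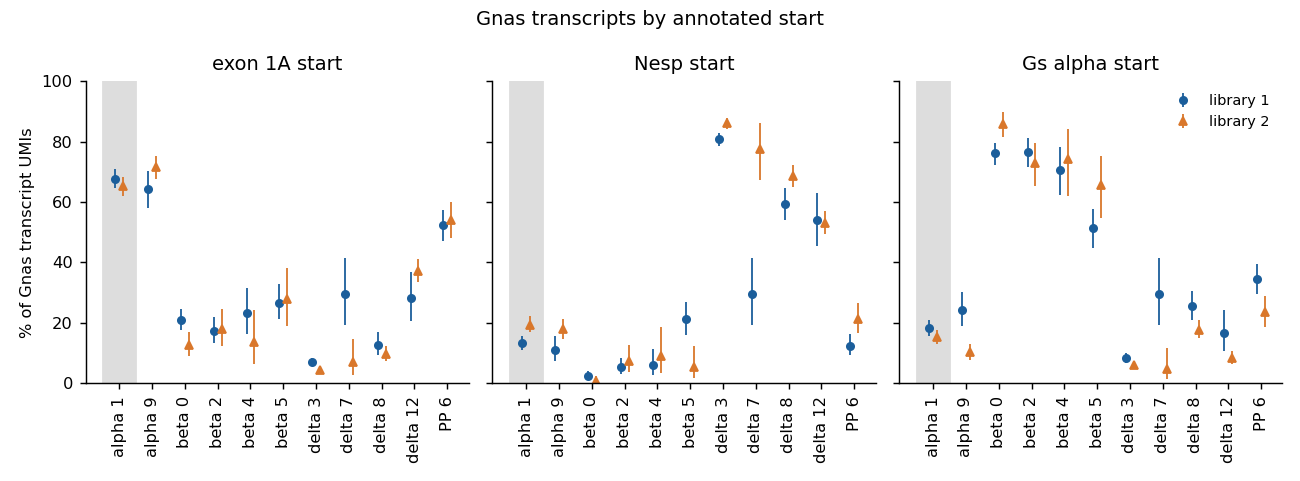
Share of Gnas transcript UMIs (y axis, percent) that start at exon 1A, at Nesp or at the Gs alpha start, in the endocrine clusters with at least 20 cells (x axis), with circles for library 1, triangles for library 2 and exact 95% intervals of the counts. In cluster 1 (shaded) the exon 1A share is 67.7 and 65.2%, near that of alpha cluster 9.

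The other named genes had smaller log2 usage differences, from -1.20 for Lpl-202 to 1.40 for Srpr-204. Of the 9 other called genes, Med31, Gpr137b and Lama2 had fewer than 50 UMIs in cluster 1 in at least 1 library and are not described. Ang, the ribonuclease angiogenin, used Ang-202 for 34.7 and 45.9% of its UMIs in cluster 1, against 25.0 and 24.8% (adjusted p 0.012 in edgeR), but the other clusters covered 8.50 to 54.5% and 6.10 to 53.6%. Ang overlaps Rnase4 on the same strand, so UMIs may be split between the genes. Arpc5, a subunit of the actin-nucleating complex, used the retained-intron Arpc5-203 for 17.7 and 10.2%, against 5.64 and 4.63% (adjusted p 0.012), above the highest other cluster in each library. Lpl, lipoprotein lipase, used the retained-intron Lpl-202 for 3.87 and 1.53%, against 11.6 and 12.1% (adjusted p 0.0080). Srpr, the signal recognition particle receptor, used the retained-intron Srpr-204 for 6.90 and 5.82%, against 1.90 and 2.00% (adjusted p 0.00093). H2-Ke6, a steroid dehydrogenase gene of the MHC region, used H2-Ke6-212 for 24.0 and 16.5%, against 6.98 and 7.75% (adjusted p 0.026). H2-Ke6 overlaps a second gene on the same strand. In alpha cluster 9, Ang-202 took 46.9 and 37.6%, Arpc5-203 took 12.5 and 9.72% and Lpl-202 took 1.01 and 1.51%. There, Srpr-204 took 0% of 32 UMIs and 6.96% of 158, and H2-Ke6-212 took 16.1 and 16.2%. Dusp1, a phosphatase of the immediate early response, used the retained-intron Dusp1-203 for 15.4 and 1.79%, against 14.7 to 50.0% in library 1 and 0.433 to 32.8% in library 2 over the other clusters (adjusted p 0.047). Its 2 libraries differed more from each other than cluster 1 did from alpha cluster 9, which stood at 16.7 and 2.39%.

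The genes that define the cluster showed almost no choice of transcript. Gcg-201 took 98.9 and 99.2% of Gcg UMIs in cluster 1, against 98.7 and 98.7% elsewhere. Ttr-201 took 100% in both groups. Irx2-201 took 96.8 and 97.0%, against 100 and 99.0%.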

How the data were processed

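Gene and transcript UMI counts per cell barcode were deposited by the authors, as unnormalised counts, with their table of cells and clusters. The submitters' processing notes name Seurat and mm10. No aligner, counter or strand setting is given in the sources used here. The files held 6395 and 2124 barcodes, of which the authors' table keeps 4814 and 1093. Total gene counts were 11012364 in library 1 and 12092393 in library 2. The other libraries of the series were not analysed here.

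Counts were summed per library and cluster, scaled by TMM (edgeR 4.0.16) to CPM, and compared as log2 ratios with 5 CPM added and a floor of 20 CPM. Transcript counts with at least 10 UMIs and 5% of their gene were tested with edgeR's quasi-likelihood fit and diffSpliceDGE, with the library as a replicate block because each library gives every cluster, Simes p per gene and Benjamini-Hochberg adjustment over all genes. Of these steps, only the transcript usage fit was tested on simulated counts. Apart from the changes set in cluster 1, these held the transcript shares of all clusters and both libraries alike. Its outcome therefore need not hold for these data. Scripts ran in Python 3.11.15 (pandas 2.3.3, scipy 1.17.1, scanpy 1.11.5) and R 4.3.3 (limma 3.58.1, DESeq2 1.42.0). Scrublet in scanpy marked 6 and 13 cells as doublets; since 0.125% in library 1 is too few for a working call, doublets were kept and the 6% of cells with the highest scores were left out as an alternative. Intervals are exact binomial or Poisson at 95% and cover counting error only. Gene positions are from GENCODE M21 and sequences from RefSeq (GRCm38.p6).

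Named genes were the 20 higher and 15 lower ones with the largest smaller-of-2-libraries ratio and at least 50 CPM in each library (lower genes also below at least 9 of the 12 clusters, predicted and mitochondrial genes left out), up to 6 members of each list and every marker. Some genes that this rule names are not reported here. The transcripts named had an own adjusted p under 0.05 and at least 50 gene UMIs in each library. The members, lists and tests were chosen with earlier results of these data known. Alternatives covered scaling, pseudocount, filters, reference clusters, doublets, the block, the test and leaving out each library.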

Additional observations from a re-analysis of the deposited data

How the results depend on the processing

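Without TMM scaling, 63 genes were at least 2-fold higher and 512 lower in cluster 1 than in the other endocrine clusters, and without the floor 497 were lower. With 1 library, which asks for the threshold only once, the counts were 169 to 228 higher and 382 to 454 lower. Under the other alternatives they stayed within 94 to 182 higher and 204 to 427 lower. Against alpha cluster 9 the higher genes numbered 2 without TMM, 6 with DESeq2 size factors, 6 with CPM over non-hormone genes, 20 with 1 CPM added, 45 with no floor and 114 to 305 in 1 library. The lower genes numbered 0 without TMM, 5 with 1 CPM added and 59 to 97 in 1 library. Genes with a called change of transcript usage numbered 1 without the replicate block, 24 with no filter, 21 with the other endocrine cells summed, 25 without cluster 9 in the reference and 33 without clusters 9 and 12, the last chosen after seeing the data. Of the usage differences of the 10 named transcripts, 7 lost their call without the replicate block. Of the 10 genes called, 8 stayed called with cells summed, 6 with limma (15 called), 6 with the stricter transcript filter (11 called), 9 with no filter and 8 without high Scrublet scores (10 called). The cause was not tested. With only clusters of at least 20 cells in the reference, the log2 ratios of Prph (0.10), Stmn2 (0.41), Vip (0.41), Top2a (0.037) and Ube2c (0.17) turned positive. The depth of library 1, with a median of 1855 UMIs per cell, limits what single cells show of genes such as Irx2.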
